A study of Hyphopichia burtonii and Hyphopichia pseudoburtonii with 16 samples.

Results

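The genes described here carry the names of enzymes that make or break down GABA and glutamate, or break down proline and arginine, in yeasts and other fungi. They were taken by name, ignoring case, from the gene tables of both species as GAD1, UGA1, UGA2, PUT1, PUT2, CAR1, CAR2 and GDHA. All 8 names occurred in both tables, in 11 of 6115 genes of Hyphopichia burtonii and 10 of 5900 genes of Hyphopichia pseudoburtonii, or 21 of 12015 genes in all. Names that occur more than once are told apart by the gene ID of the table. All 21 genes reached 1 FPKM (a level scaled to gene length and library size) in at least 2 of the 8 libraries of their species and were tested.

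Wild-type cultures of H. burtonii strain KJJ43 and H. pseudoburtonii strain KJS14, both isolated from the Korean fermentation starter Nuruk, were grown in YPD broth from an OD600 of 0.6 to 2.0. A first harvest was taken at 0 min, YPD holding 2 M NaCl was then mixed in at equal volume to give 1 M, and further harvests followed at 5, 15 and 30 min. RNA-seq was made in 2 libraries for each species and time, 16 in all. A course with fresh medium and no salt was not analysed here, so salt, dilution and fresh medium cannot be told apart. Each species is 1 strain, and the library series coincide with the species. Whether the paired libraries stem from different cultures is not stated in the labels, so p-values measure only the spread between these libraries, which may be technical.

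As background, the GABA shunt runs from glutamate to succinate. Glutamate decarboxylase makes GABA, GABA aminotransferase turns it into succinate semialdehyde, and succinate semialdehyde dehydrogenase makes succinate, as known from Saccharomyces cerevisiae. In the same yeast arginase and ornithine aminotransferase open arginine breakdown, and proline dehydrogenase and pyrroline-5-carboxylate dehydrogenase carry proline to glutamate in mitochondria. Both routes deliver glutamate, and arginine and proline serve yeasts as nitrogen sources when better ones are scarce.

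Against 0 min, 1 of the 11 H. burtonii genes rose and 2 fell at 5 min, 7 rose and 1 fell at 15 min, and 5 rose and 1 fell at 30 min. In H. pseudoburtonii none of the 10 was called at 5 min, 2 rose at 15 min, and 6 rose and 2 fell at 30 min. A gene is called, and written as having risen or fallen, where its limma p-value was under 0.05 after Benjamini-Hochberg adjustment across every gene tested in that species.

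Over all 6047 tested genes of H. burtonii, 11.2 percent rose and 11.1 percent fell at 5 min, 22.8 percent rose and 6.93 percent fell at 15 min, and 37 percent rose and 11.1 percent fell at 30 min. Over the 5798 of H. pseudoburtonii, 4.17 percent rose and 4.55 percent fell at 5 min, 9.9 percent rose and 7.8 percent fell at 15 min, and 25.8 percent rose and 9.69 percent fell at 30 min. The count of 0 at 5 min in H. pseudoburtonii compares with 3 of the 10 genes at an unadjusted limma p under 0.05, and no other tool was run. The median log2 change of the 11 genes was -0.28, 0.93 and 0.56 at 5, 15 and 30 min, beside 0.07, 0.39 and 0.56 over all tested genes. That of the 10 genes was 0.08, 0.01 and 0.93, beside 0.12, 0.10 and 0.39. Median-ratio scaling of the libraries brings the medians of all genes at 30 min to 0.07 and 0.01, and the calls of all genes then split into 1022 higher and 1092 lower in H. burtonii, in place of 2236 and 671, and into 883 and 989 in H. pseudoburtonii, in place of 1493 and 562. At 15 min in H. burtonii it gives 704 higher and 743 lower, in place of 1379 and 419. Under quantile scaling the H. burtonii calls split into 555 higher and 624 lower at 15 min and 983 higher and 1012 lower at 30 min, and those of H. pseudoburtonii at 30 min into 833 and 868.

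Between 5 and 15 min, 7 of the 11 H. burtonii genes rose and none fell, where 20.1 percent of all tested genes were called in either direction. Between 15 and 30 min 3 rose and 3 fell, against 16.2 percent of all genes. In H. pseudoburtonii 2 of 10 rose between 5 and 15 min, against 4.78 percent of all genes, and 5 rose and 2 fell between 15 and 30 min, against 14.3 percent. The last of these counts rests on few libraries. It falls without any 1 of the 0, 15 or 30 min libraries. The 7 calls between 5 and 15 min in H. burtonii become fewer without any 1 of the 5, 15 or 30 min libraries. Its 6 calls between 15 and 30 min become fewer without either 5 min library, the second 15 min library or either 30 min library. In H. pseudoburtonii the 2 calls between 5 and 15 min become fewer without the first 15 min library. The same holds without either library of 0, 5 or 30 min. In most of these cases fewer of all tested genes were called as well. More were called from 5 to 15 min in H. pseudoburtonii without its first 5 min library. The same was true from 15 to 30 min without its second 15 min library. Without either 30 min library every H. pseudoburtonii call between 15 and 30 min was lost over all tested genes. That last loss was not confined to the genes described here.

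**Figure D1:**
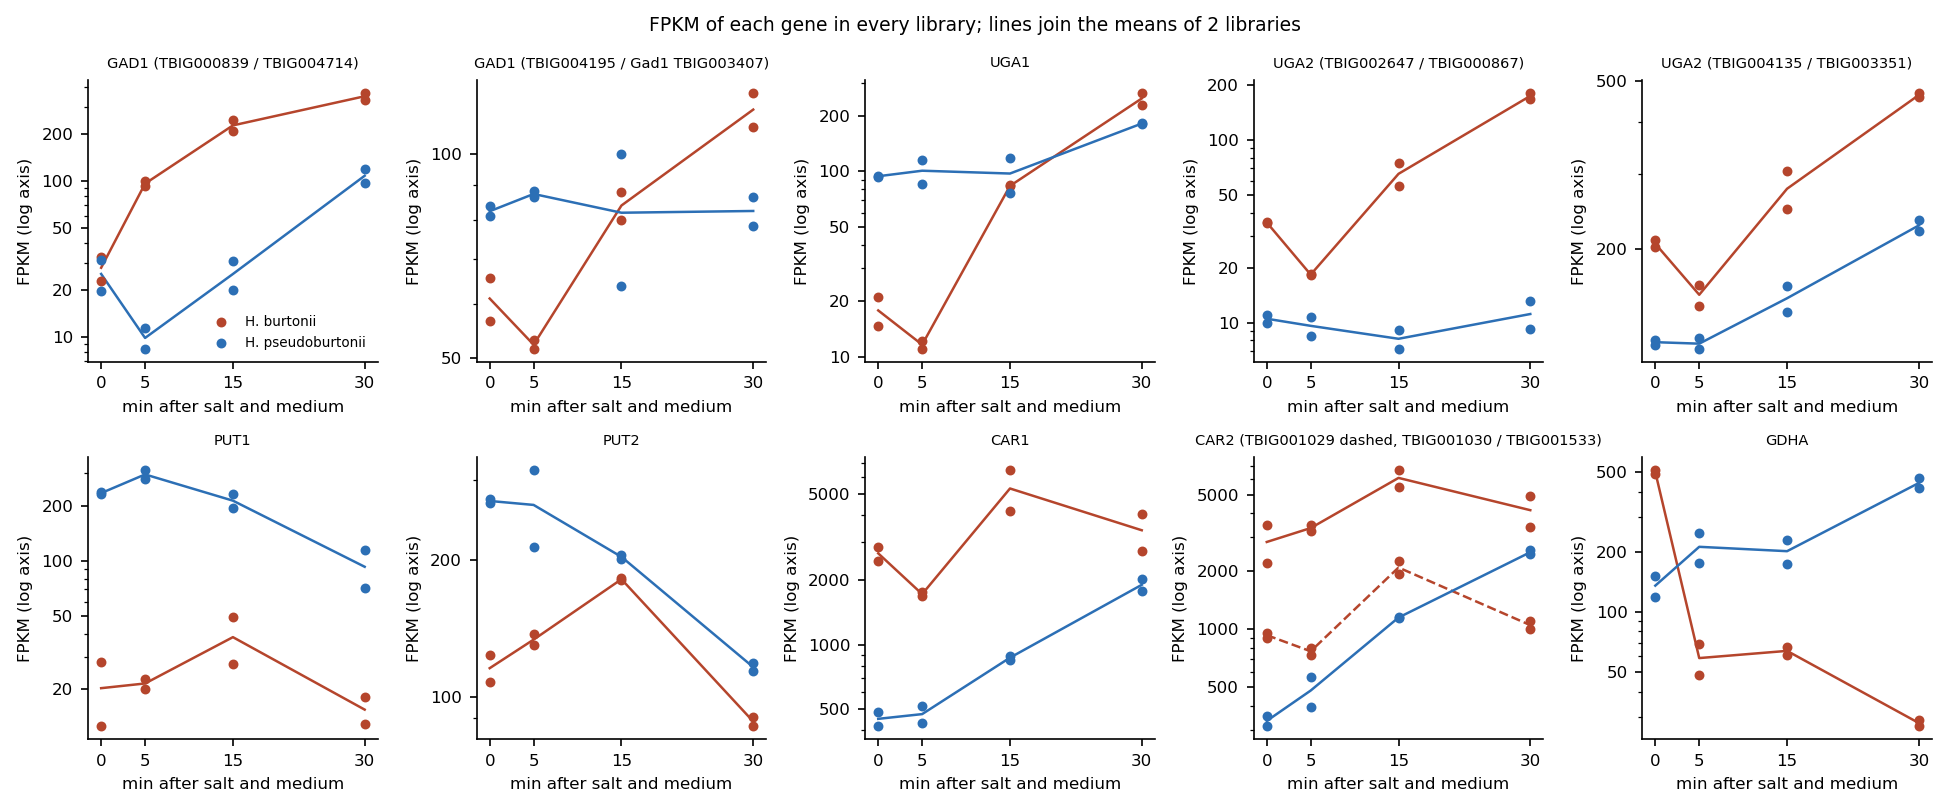
FPKM on log axes against minutes after salt and medium were added, for the 21 genes in 10 panels. Points are libraries, lines join the means of 2 libraries per time, red is H. burtonii and blue H. pseudoburtonii, and in the CAR2 panel the dashed line is TBIG001029. GDHA goes from 491 and 514 FPKM to 26.8 and 28.9 FPKM in H. burtonii and up to 469 and 416 FPKM in H. pseudoburtonii.

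**Figure D2:**
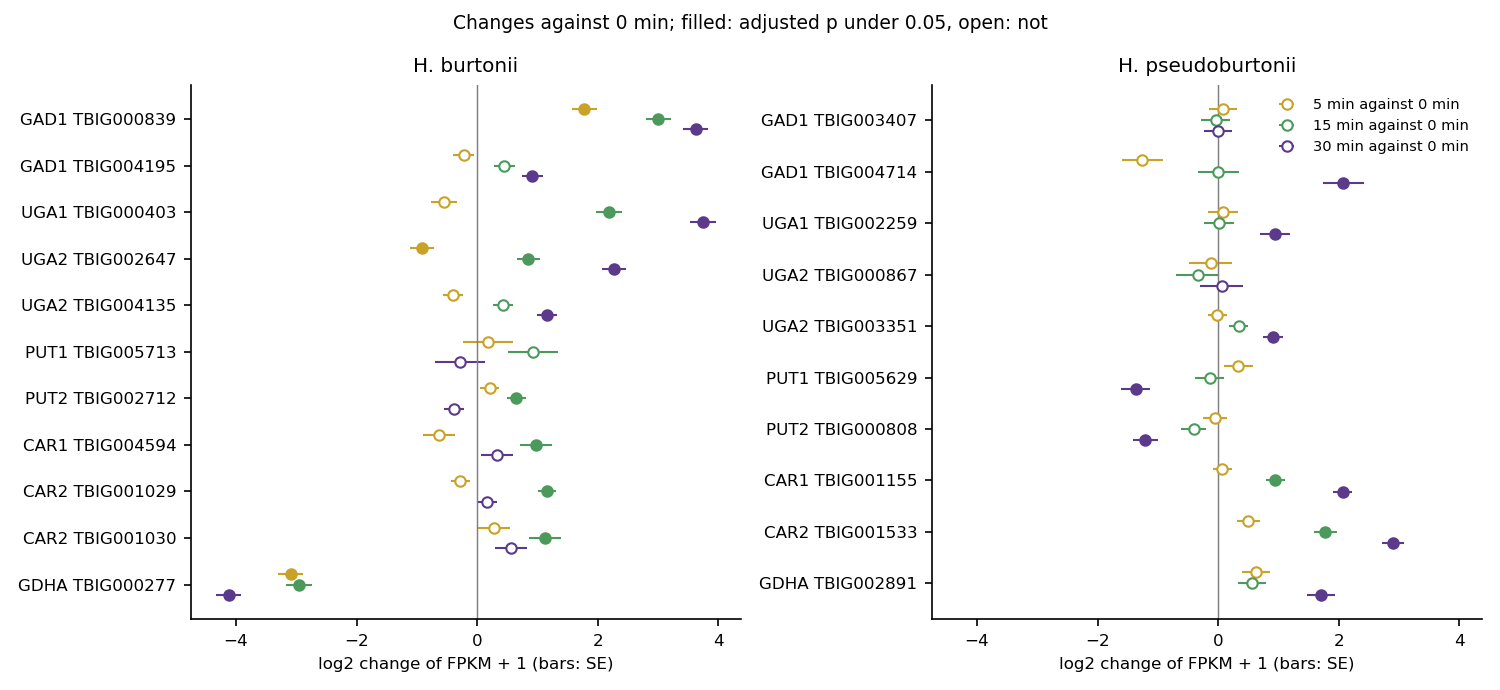
Log2 change of FPKM + 1 against 0 min for the 11 genes of H. burtonii and the 10 of H. pseudoburtonii. Points are estimates from 2 libraries per time, bars are standard errors, and filled points passed an adjusted p of 0.05. In H. burtonii GAD1 TBIG000839 and UGA1 lie far right at 30 min and GDHA far left at every time, and in H. pseudoburtonii nearly all filled points are those of 30 min.

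Both genes named for the first step of the GABA shunt rose in H. burtonii, 1 of them from 5 min on and the other against 0 min at 30 min. GAD1 TBIG000839 (chromosome 1, 1680629 to 1682347, plus strand, in the coordinates of the file, whose build is not given) is annotated as glutamate decarboxylase. Its 2 libraries gave 22.9 and 32.6 FPKM at 0 min, 92.7 and 99.8 FPKM at 5 min, 209 and 246 FPKM at 15 min and 368 and 332 FPKM at 30 min. Every later library lay above both 0 min libraries, and no 2 times overlapped. The log2 change was 1.78 ± 0.21 (SE) at 5 min, 3.01 ± 0.21 at 15 min and 3.63 ± 0.21 at 30 min, with adjusted p of 0.00213, 0.000145 and 1.69e-05 in limma. It was the only one of the 11 genes that was called higher at 5 min.

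The second H. burtonii gene of that name, GAD1 TBIG004195 (chromosome 5, 382114 to 383637, plus strand), is annotated as glutamate decarboxylase 1 from another Swiss-Prot entry. It gave 65.7 and 56.7 FPKM at 0 min, 53.1 and 51.6 FPKM at 5 min, 87.9 and 80.0 FPKM at 15 min and 109 and 123 FPKM at 30 min. Only the 30 min change was called against 0 min, at a log2 of 0.92 ± 0.17 (adjusted p = 0.00429), and both 30 min libraries lay above all others. Under median-ratio scaling this change is 0.41 and under quantile scaling 0.46, and neither passes the threshold.

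In H. pseudoburtonii GAD1 TBIG004714 (chromosome 6, 809056 to 810774, minus strand), which has the same Swiss-Prot entry as TBIG000839, took another course. It gave 19.7 and 31.0 FPKM at 0 min, 8.36 and 11.3 FPKM at 5 min, 19.96 and 30.7 FPKM at 15 min and 119.7 and 96.5 FPKM at 30 min. Both 5 min libraries were below and both 30 min libraries above all the others, while 0 and 15 min overlapped. The log2 change was 2.08 ± 0.34 at 30 min (adjusted p = 0.00358) and -1.26 ± 0.34 at 5 min (adjusted p = 0.0622), which did not pass. The 5 min value is called under median-ratio scaling, at -1.38, and also without either 15 min library, at -1.26.

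Gad1 TBIG003407 of H. pseudoburtonii (chromosome 4, 1389646 to 1391175, plus strand), again annotated as glutamate decarboxylase 1, gave 80.9 and 83.8 FPKM at 0 min, 88.3 and 86.4 FPKM at 5 min, 99.9 and 63.9 FPKM at 15 min and 86.4 and 78.4 FPKM at 30 min. Its 15 min libraries spanned those of all other times. No change was called, and the log2 values against 0 min were 0.08 ± 0.24, -0.04 ± 0.24 and -0.00 ± 0.24.

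UGA1, the GABA aminotransferase, rose late and far in H. burtonii. TBIG000403 (chromosome 1, 803296 to 804708, plus strand) gave 14.6 and 20.9 FPKM at 0 min, 12.2 and 10.99 FPKM at 5 min, 84.0 and 83.1 FPKM at 15 min and 266 and 229.9 FPKM at 30 min. All libraries of 15 and 30 min lay above all libraries of 0 and 5 min. The log2 change was 2.19 ± 0.22 at 15 min (adjusted p = 0.000608) and 3.75 ± 0.22 at 30 min (adjusted p = 1.75e-05), the largest rise of the 11 genes. The 5 min value of -0.56 ± 0.22 was not called (adjusted p = 0.101) and becomes -0.77, and called, under quantile scaling.

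In H. pseudoburtonii UGA1 TBIG002259 (chromosome 3, 458935 to 460347, plus strand) rose less. It gave 94.9 and 93.6 FPKM at 0 min, 86.0 and 116 FPKM at 5 min, 76.3 and 119 FPKM at 15 min and 180.4 and 183 FPKM at 30 min. Both 30 min libraries were above all others, and the earlier times overlapped. The log2 change at 30 min was 0.94 ± 0.25 (adjusted p = 0.0225). The call is lost without any 1 of the 0 or 30 min libraries, at 0.93 to 0.95, and under median-ratio and quantile scaling, at 0.54 and 0.73.

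UGA2, the succinate semialdehyde dehydrogenase, has 2 genes in each species, all annotated from 1 Swiss-Prot entry. In H. burtonii TBIG002647 (chromosome 3, 599272 to 600831, plus strand) gave 35.1 and 35.7 FPKM at 0 min, 18.2 and 18.5 FPKM at 5 min, 74.7 and 56.1 FPKM at 15 min and 167 and 182 FPKM at 30 min. The times did not overlap, with 5 min lowest. It fell by 0.91 ± 0.20 on the log2 scale at 5 min (adjusted p = 0.018) and rose by 0.85 ± 0.20 at 15 min (adjusted p = 0.0167) and 2.27 ± 0.20 at 30 min (adjusted p = 0.000133). The 5 min call is lost without either 5 min library, at -0.90 and -0.92. The 15 min call is lost without the first 15 min library, at 0.65, and under median-ratio and quantile scaling, at 0.50 and 0.55.

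TBIG004135 (chromosome 5, 265953 to 267427, minus strand), the other UGA2 gene of H. burtonii, was the more abundant, with 201 and 209 FPKM at 0 min. It gave 164 and 147 FPKM at 5 min, 306 and 248 FPKM at 15 min and 468 and 457 FPKM at 30 min. The order of the times was the same as for TBIG002647, also without overlap, and the rise at 30 min was smaller, at a log2 of 1.17 ± 0.17 (adjusted p = 0.0012). The values at 5 and 15 min, -0.40 ± 0.17 and 0.42 ± 0.17, were not called.

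The UGA2 genes of H. pseudoburtonii differed in level and in course. TBIG003351 (chromosome 4, 1240405 to 1241883, minus strand) gave 122 and 118 FPKM at 0 min, 123 and 116 FPKM at 5 min, 163 and 142 FPKM at 15 min and 234 and 220.0 FPKM at 30 min. Its 30 min libraries were the highest, and its log2 change there was 0.91 ± 0.16 (adjusted p = 0.00453). Under median-ratio scaling that change is 0.51 and not called. TBIG000867 (chromosome 1, 2259031 to 2260596, minus strand) stayed between 7.18 FPKM at 15 min and 13.1 FPKM at 30 min, its times overlapped, and none of its changes was called. FPKM at 0 min placed TBIG000867 at the 18.3 to 20.4 percentile of its table and TBIG003351 at the 77.9 to 78.9 percentile.

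The arginine genes had the highest FPKM of the set at 0 min in both species. They were highest at 15 min in H. burtonii and at 30 min in H. pseudoburtonii. CAR1 is arginase, which cleaves arginine into ornithine and urea. In H. burtonii CAR1 TBIG004594 (chromosome 5, 1232480 to 1233501, plus strand) stood at the 98.0 to 98.3 percentile of all genes at 0 min, with 2862 and 2457 FPKM. It gave 1678 and 1761 FPKM at 5 min, 6492 and 4166 FPKM at 15 min and 2737 and 4076 FPKM at 30 min. The 5 min libraries were the lowest and the 15 min libraries the highest, while 0 and 30 min overlapped.

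The log2 change of H. burtonii CAR1 was 0.97 ± 0.27 at 15 min (adjusted p = 0.0301), -0.63 ± 0.27 at 5 min and 0.33 ± 0.27 at 30 min, the last 2 not called. The 15 min call is lost without the second 0 min library, at 0.86, without either 5 min library, at 0.97, and without the first 15 min library, at 0.65. It is lost as well under median-ratio scaling, at 0.61, and quantile scaling, at 0.86. From 5 to 15 min the log2 change was 1.60 ± 0.27 (adjusted p = 0.00875), a call lost without either 5 min library, at 1.56 and 1.63.

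CAR1 TBIG001155 of H. pseudoburtonii (chromosome 1, 2977569 to 2978583, plus strand) climbed to the last harvest. It gave 486 and 417 FPKM at 0 min, 434 and 517 FPKM at 5 min, 889 and 851 FPKM at 15 min and 2025 and 1773 FPKM at 30 min. The 15 min libraries lay above those of 0 and 5 min, and the 30 min libraries above all others. The log2 change was 0.95 ± 0.16 at 15 min (adjusted p = 0.00779) and 2.07 ± 0.16 at 30 min (adjusted p = 0.00017). The 15 min call is lost without the second 0 min library, at 0.84.

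CAR2 is ornithine aminotransferase, which takes the ornithine from arginase towards proline and glutamate. H. pseudoburtonii has 1 gene model of the name, car2 TBIG001533 (chromosome 2, 856105 to 857412, minus strand), and it had the largest rise of the 10 genes. It gave 314 and 356 FPKM at 0 min, 395 and 569 FPKM at 5 min, 1148 and 1155 FPKM at 15 min and 2453 and 2571 FPKM at 30 min. No 2 times overlapped. The log2 change was 1.78 ± 0.19 at 15 min (adjusted p = 0.00128) and 2.90 ± 0.19 at 30 min (adjusted p = 7.4e-05), and the 5 min value of 0.50 ± 0.19 was not called. Without the first 5 min library the 5 min value is 0.76 and called.

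In H. burtonii the name belongs to 2 neighbouring gene models on the plus strand of chromosome 1, car2 TBIG001029 (2060013 to 2060696) and car2 TBIG001030 (2060780 to 2061319). They lie 83 bases apart, carry the same Swiss-Prot entry, and together span 1307 bases where the single model of H. pseudoburtonii spans 1308. They may be parts of 1 gene, and their FPKM are therefore uncertain. TBIG001029 gave 907 and 959 FPKM at 0 min, 738 and 802 FPKM at 5 min, 2254 and 1931 FPKM at 15 min and 999 and 1105 FPKM at 30 min. TBIG001030 gave 2213 and 3464 FPKM at 0 min, 3241 and 3464 FPKM at 5 min, 5501 and 6699 FPKM at 15 min and 4891 and 3409 FPKM at 30 min. Both models were highest in the 15 min libraries, and the second stood 2.44 to 4.89 times above the first.

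At 15 min TBIG001029 rose by 1.16 ± 0.16 (adjusted p = 0.00222) and TBIG001030 by 1.13 ± 0.26 (adjusted p = 0.0176) on the log2 scale. The call for TBIG001030 is lost without the first 0 min library, at 0.81, without the second 15 min library, at 0.99, and under median-ratio scaling, at 0.77. At 30 min neither was called, at 0.17 ± 0.16 and 0.56 ± 0.26, and the value of TBIG001029 turns to -0.34 under median-ratio scaling. Without the second 0 min library that of TBIG001030 is 0.88 and called. Merged as a mean weighted by length, a step chosen after the data were seen, CAR2 changed by 1.14 ± 0.21 at 15 min (adjusted p = 0.00738) and 0.46 ± 0.21 at 30 min (adjusted p = 0.105).

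Between 15 and 30 min TBIG001029 fell by 0.99 ± 0.16 on the log2 scale (adjusted p = 0.00656), a call lost without the first 30 min library, at -0.92. Over the same interval CAR2 of H. pseudoburtonii rose by 1.12 ± 0.19 (adjusted p = 0.0136) and CAR1 by 1.12 ± 0.16 (adjusted p = 0.00862). Without either 30 min library the H. pseudoburtonii values are 1.09 and 1.16 for CAR2 and 1.03 and 1.22 for CAR1. Their calls are lost in those fits, as are all other calls of the species over this interval.

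The proline enzymes fell in H. pseudoburtonii at 30 min, while its arginine genes rose. PUT1 is proline dehydrogenase, and TBIG005629 (chromosome 8, 193362 to 194846, minus strand) gave 238 and 230.1 FPKM at 0 min, 313 and 279 FPKM at 5 min, 193 and 233 FPKM at 15 min and 70.8 and 115 FPKM at 30 min. Both 30 min libraries were the lowest, and both 5 min libraries the highest. The change at 30 min was -1.36 ± 0.24 (adjusted p = 0.00471), and the values at 5 and 15 min, 0.33 ± 0.24 and -0.14 ± 0.24, were not called.

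PUT2 is pyrroline-5-carboxylate dehydrogenase, the step after PUT1. TBIG000808 of H. pseudoburtonii (chromosome 1, 2101040 to 2102806, plus strand) gave 267 and 273 FPKM at 0 min, 315 and 213 FPKM at 5 min, 201 and 205 FPKM at 15 min and 114 and 119 FPKM at 30 min. The 30 min libraries were the lowest, and 0 and 5 min overlapped. The change at 30 min was -1.21 ± 0.20 (adjusted p = 0.00385).

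In H. burtonii PUT2 TBIG002712 (chromosome 3, 728791 to 730557, minus strand) gave 108 and 123 FPKM at 0 min, 129.8 and 138 FPKM at 5 min, 180.4 and 183 FPKM at 15 min and 90.4 and 86.2 FPKM at 30 min. The 15 min libraries were the highest and the 30 min libraries the lowest. It rose by 0.65 ± 0.16 at 15 min (adjusted p = 0.0204) and fell by 1.03 ± 0.16 from 15 to 30 min (adjusted p = 0.00571), both on the log2 scale. The 15 min call is lost without the first 0 min library, at 0.55, without either 5 min library, at 0.65, without the second 15 min library, at 0.64, and under median-ratio and quantile scaling, at 0.29 and 0.49. The 30 min value against 0 min, -0.38 ± 0.16, was not called, and is called at -0.89 under median-ratio and -0.78 under quantile scaling.

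H. burtonii PUT1 TBIG005713 (chromosome 8, 146222 to 147691, minus strand) was low and variable. Its libraries gave 12.6 and 28.0 FPKM at 0 min, 20.1 and 22.9 FPKM at 5 min, 27.4 and 49.6 FPKM at 15 min and 18.1 and 12.9 FPKM at 30 min. The 0 min libraries spanned those of 5 and 30 min, and no change was called. The 15 min value was 0.93 ± 0.42 (adjusted p = 0.126), and without the second 0 min library it is 1.48 and called.

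GDHA moved in opposite directions. Both genes are annotated as NADP-specific glutamate dehydrogenase, which in S. cerevisiae makes glutamate from ammonium and 2-oxoglutarate and does not mainly break it down, so the annotation goes against grouping GDHA with breakdown. In H. burtonii TBIG000277 (chromosome 1, 563713 to 565079, plus strand) gave 491 and 514 FPKM at 0 min, 48.3 and 69.5 FPKM at 5 min, 67.2 and 60.8 FPKM at 15 min and 26.8 and 28.9 FPKM at 30 min. Every later library lay far below both 0 min libraries. The log2 change was -3.09 ± 0.21 at 5 min, -2.95 ± 0.21 at 15 min and -4.12 ± 0.21 at 30 min, with adjusted p of 0.000327, 0.000145 and 9.5e-06.

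In H. pseudoburtonii GDHA TBIG002891 (chromosome 4, 66986 to 68353, plus strand) gave 119.6 and 152 FPKM at 0 min, 177 and 248 FPKM at 5 min, 175 and 229 FPKM at 15 min and 469 and 416 FPKM at 30 min. All later libraries were above both 0 min libraries, and 5 and 15 min overlapped. The change was called only at 30 min, at 1.71 ± 0.23 (adjusted p = 0.00173), and the earlier values were 0.63 ± 0.23 and 0.57 ± 0.23.

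At 0 min the order of mean FPKM among the H. burtonii genes ran from CAR2 TBIG001030 (2839 ± 885 FPKM, SD, n = 2) and CAR1 (2660.0 ± 287 FPKM), which overlapped, through CAR2 TBIG001029 (933 ± 36.6 FPKM) and GDHA (502 ± 16.4 FPKM) down to GAD1 TBIG000839, PUT1 and UGA1 (27.8 ± 6.86, 20.3 ± 10.9 and 17.8 ± 4.4 FPKM). The last 3 overlapped in part. In H. pseudoburtonii CAR1 was highest (452 ± 48.9 FPKM), before CAR2 (335 ± 29.4 FPKM), PUT2 (270 ± 4.04 FPKM) and PUT1 (234 ± 5.73 FPKM), and UGA2 TBIG000867 was lowest (10.5 ± 0.741 FPKM). GDHA stood below these 4 genes in H. pseudoburtonii, at 136 ± 22.7 FPKM. Levels were not tested between the species, whose tables were made separately.

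Whether the changes differed was tested in limma, subtracting the H. burtonii change from the H. pseudoburtonii change, over 3399 gene pairs that share a Swiss-Prot accession or a name found once in each species. This gives 6 pairs: GAD1 TBIG000839 with TBIG004714, UGA1, PUT1, PUT2, CAR1 and GDHA. At 5 min 2 of the 6 differed, at 15 min 4 and at 30 min 5. Over all pairs 15.5, 20.8 and 36.1 percent were called at these times, with median differences of 0.05, -0.33 and -0.28.

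GDHA differed most, by 3.72 ± 0.33 at 5 min (adjusted p = 2.12e-05), 3.52 ± 0.33 at 15 min (adjusted p = 9.55e-05) and 5.83 ± 0.33 at 30 min (adjusted p = 3.91e-07), on the log2 scale. The GAD1 pair had the opposite sign, at -3.04 ± 0.40, -3.00 ± 0.40 and -1.55 ± 0.40 (adjusted p = 0.000463, 0.0004 and 0.0092), with the larger rise in H. burtonii. UGA1 differed by -2.18 ± 0.34 at 15 min (adjusted p = 0.00127) and -2.81 ± 0.34 at 30 min (adjusted p = 9.33e-05).

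CAR1 was called different at 30 min, by 1.74 ± 0.33 (adjusted p = 0.00162), and not at 5 or 15 min, where the values were 0.70 ± 0.33 and -0.02 ± 0.33. PUT2 differed by -1.06 ± 0.26 at 15 min (adjusted p = 0.0148) and -0.82 ± 0.26 at 30 min (adjusted p = 0.0279). The 15 min call of PUT2 is lost without the second 0 min library of H. pseudoburtonii, at -1.04, and under quantile scaling, at -0.77. Its 30 min call is lost under quantile scaling, at -0.56, without the first 0 min library of H. burtonii, at -0.73, and without any 1 of the 0 min libraries of H. pseudoburtonii or the 30 min libraries of either species, at -0.79 to -0.86. PUT1 was not called, at 0.15 ± 0.52, -1.07 ± 0.52 and -1.08 ± 0.52, and without the second 0 min library of H. burtonii it is called at 15 min, at -1.62, and at 30 min, at -1.63.

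Copies that recur were matched by their neighbours, a step added after the data were seen. Among the 10 genes on each side, the copies that match shared 11 to 14 Swiss-Prot accessions and the others 0. GAD1 TBIG000839 matched TBIG004714, GAD1 TBIG004195 matched Gad1 TBIG003407, UGA2 TBIG002647 matched TBIG000867 and UGA2 TBIG004135 matched TBIG003351. The single-copy genes shared 10 to 17, and each CAR2 model of H. burtonii shared 9 with TBIG001533.

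With these copies, 8 of 10 pairs differed at 30 min, beside 36.1 percent of the 3399 pairs made by accession or name. UGA2 TBIG000867 differed from TBIG002647 by -2.21 ± 0.34 at 30 min (adjusted p = 0.000413) and -1.19 ± 0.34 at 15 min (adjusted p = 0.0275). The other UGA2 pair differed by -0.25 ± 0.23 at 30 min (adjusted p = 0.408), so its change was not shown to differ. CAR2 differed by 2.45 ± 0.30 (adjusted p = 8.95e-05) and Gad1 TBIG003407 by -0.92 ± 0.29 (adjusted p = 0.0286) at 30 min.

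The 15 min call for UGA2 TBIG000867 is lost under median-ratio and quantile scaling, at -0.93 and -1.11, and without the first 0 min or first 15 min library of H. burtonii or any 1 of both 0 min libraries and the first 15 min library of H. pseudoburtonii, at -0.98 to -1.25. The 30 min call for Gad1 TBIG003407 is lost under the same scalings, at -0.81 and -0.81, and without the second 0 min library of H. burtonii or any 1 of the 0 min libraries of H. pseudoburtonii or the 30 min libraries of either species, at -0.81 to -1.0.

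**Figure D3:**
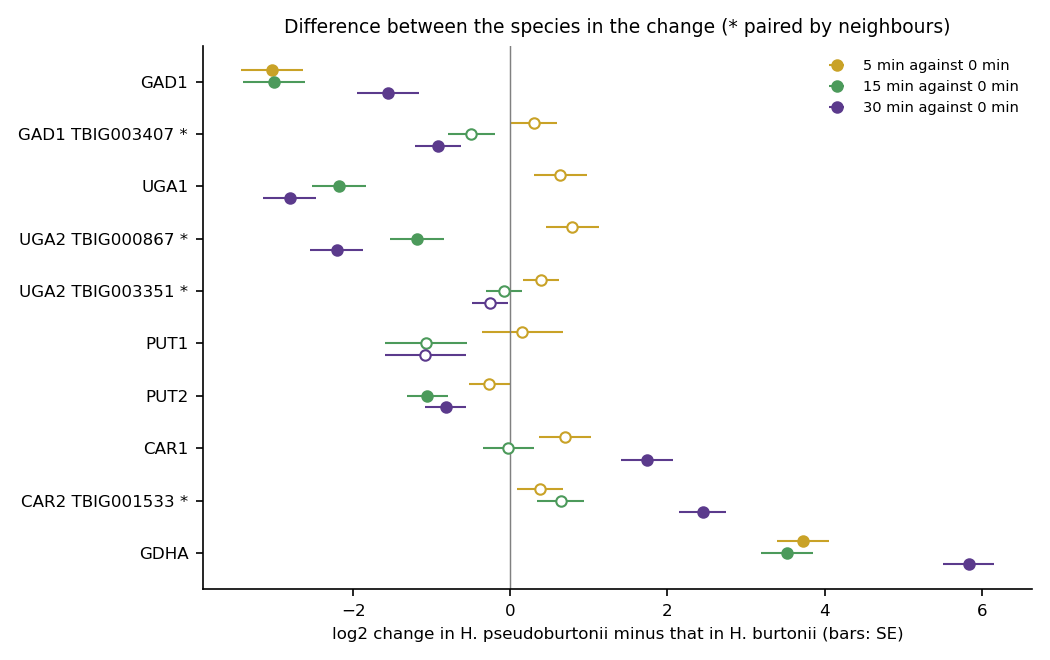
Difference of the log2 changes against 0 min (H. pseudoburtonii minus H. burtonii) for 10 gene pairs at 5, 15 and 30 min. Bars are standard errors, filled points passed an adjusted p of 0.05, and stars mark pairs made by neighbouring genes. GDHA lies far right and the GAD1 pair without a star lies left at all 3 times. CAR1 and CAR2 lie right at 30 min, and UGA1 and UGA2 TBIG000867 lie left at 15 and 30 min.

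Other genes of nitrogen metabolism were read from lists of names. Among glutamate and glutamine genes 3 of 7 fell and 1 rose in H. burtonii at 30 min, and 4 of 6 rose and 0 fell in H. pseudoburtonii, with medians of -0.97 and 0.82. Over all tested genes at 30 min, 37 percent rose and 11.1 percent fell in H. burtonii, and 25.8 percent rose and 9.69 percent fell in H. pseudoburtonii, with medians of 0.56 and 0.39. GLN1, glutamine synthetase, changed by -1.56 ± 0.20 in H. burtonii, from 2132 and 1964 FPKM to 731 and 661 FPKM (adjusted p = 0.00081), and by 1.23 ± 0.16 in H. pseudoburtonii, from 601 and 661 FPKM to 1551 and 1409 FPKM (adjusted p = 0.00142). ALT1, alanine aminotransferase, changed by -1.99 ± 0.17 (adjusted p = 0.000106) and 2.96 ± 0.19 (adjusted p = 7.22e-05). Both pairs differed between the species at 30 min, GLN1 by 2.79 ± 0.27 (adjusted p = 2.19e-05) and ALT1 by 4.95 ± 0.25 (adjusted p = 1.65e-07). The AAT2, IDP1 and IDP2 pairs of the same list were not called as different at 30 min. Their values were 0.24 ± 0.61, -0.35 ± 0.34 and 0.91 ± 0.56.

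GLT1, glutamate synthase, had the same signs, with -0.99 ± 0.22 in H. burtonii (adjusted p = 0.00875) and 1.03 ± 0.30 in H. pseudoburtonii (adjusted p = 0.0307). The first call is lost without the second 30 min library, at -0.74. The second is lost without any 1 of the 0 or 30 min libraries, at 0.98 to 1.08, with no trend in the prior variance, at 1.03, and under median-ratio and quantile scaling, at 0.63 and 0.70. The name GLT1 belongs to 2 neighbouring models in H. burtonii, of which TBIG002825 is given here. The gene annotated as NAD-specific glutamate dehydrogenase, gdh-1, the type that in S. cerevisiae breaks glutamate down, was picked from its description outside the lists. It rose by 1.77 ± 0.20 in H. pseudoburtonii (adjusted p = 0.0008), from 88.5 and 96.6 FPKM to 323 and 313 FPKM, and gave -0.74 ± 0.26 in H. burtonii, which was not called (456 and 825 FPKM at 0 min, 351 and 386 FPKM at 30 min). The difference of the gdh-1 changes was 2.51 ± 0.35 at 30 min (adjusted p = 0.000219).

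**Figure D4:**
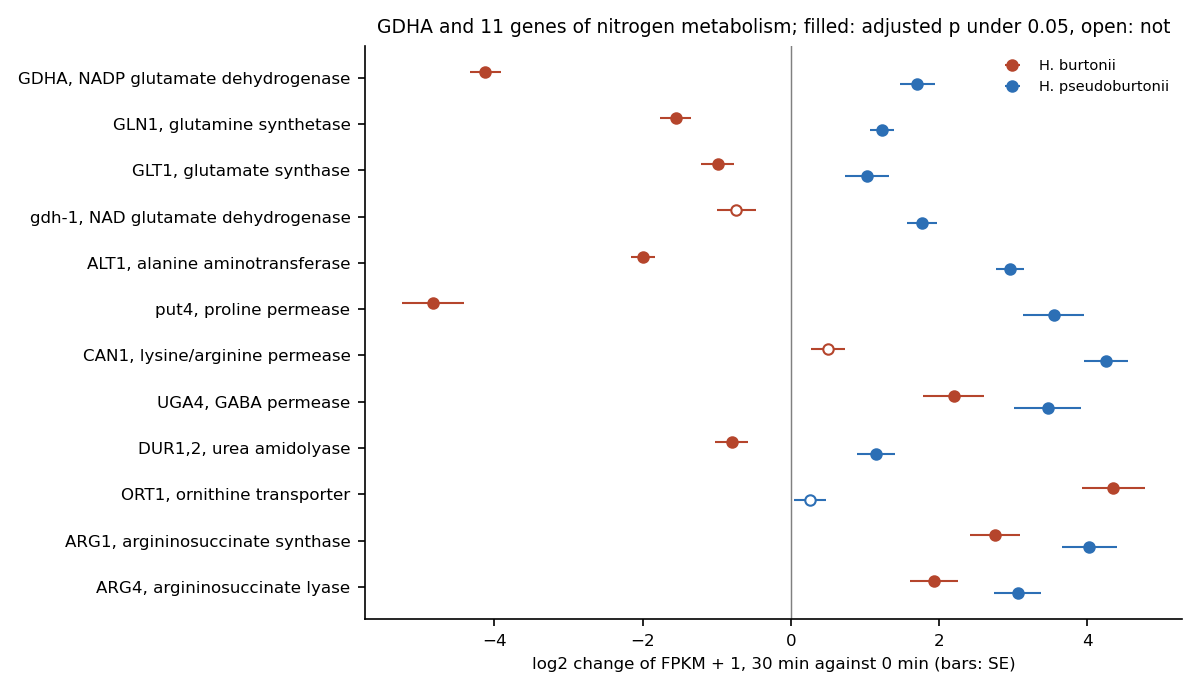
Log2 change at 30 min against 0 min of GDHA and 11 genes of nitrogen metabolism in H. burtonii (red) and H. pseudoburtonii (blue), with standard errors. Filled points passed an adjusted p of 0.05, and the genes shown were picked after their values were seen. GDHA, GLN1, GLT1, gdh-1, ALT1, put4 and DUR1,2 lie left of 0 in H. burtonii and right of 0 in H. pseudoburtonii. The H. burtonii point of gdh-1 is open. UGA4, ARG1 and ARG4 lie right of 0 in both species.

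Among genes on a list of uptake names, 5 of 17 rose and 5 fell in H. burtonii at 30 min, and 7 of 11 rose and 1 fell in H. pseudoburtonii. The list held names of GABA, proline and arginine permeases and of broader amino acid permeases, with several copies of GAP1 in each species. Some GAP1 copies of H. burtonii have adjacent gene IDs and may be parts of 1 gene. Of all genes 37 percent rose and 11.1 percent fell in the former, and 25.8 and 9.69 percent in the latter. The proline permease put4 gave 166 and 247 FPKM at 0 min and 8.7 and 4.3 FPKM at 30 min in H. burtonii, a change of -4.83 ± 0.42 (adjusted p = 0.000134). In H. pseudoburtonii put4 went from 3.6 and 5.6 FPKM to 66.2 and 60.5 FPKM, a change of 3.55 ± 0.41 (adjusted p = 0.000896). The difference of 8.37 ± 0.62 (adjusted p = 2.72e-06) was larger than that of any of the 10 pairs above. CAN1, named after the arginine permease of S. cerevisiae, rose in H. pseudoburtonii by 4.25 ± 0.30 (adjusted p = 0.000109) and was not called in H. burtonii, at 0.50 ± 0.23, and the changes differed by 3.75 ± 0.39 (adjusted p = 3.62e-05).

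The GABA permease UGA4 had 1 called gene in each species at 30 min, TBIG005786 in H. burtonii with 2.19 ± 0.41 (adjusted p = 0.00404) and TBIG005711 in H. pseudoburtonii with 3.46 ± 0.46 (adjusted p = 0.00153). Both were low, the first at 7.39 and 8.60 FPKM and the second at 20.0004 and 14.8902 FPKM at 30 min, and the other UGA4 gene of each species was not called. A second gene annotated as GABA aminotransferase, gatA, picked outside the lists, rose by 2.26 ± 0.22 in H. burtonii (adjusted p = 0.000209) and by 2.45 ± 0.67 in H. pseudoburtonii (adjusted p = 0.0254). The gatA call in H. pseudoburtonii is lost without any 1 of the 0 or 30 min libraries, at 2.27 to 2.63, and under quantile scaling, at 1.75.

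Among genes of urea and ornithine use 7 of 12 rose and 2 fell in H. burtonii at 30 min, and 1 of 11 rose in H. pseudoburtonii. Of all genes 37 and 25.8 percent rose and 11.1 and 9.69 percent fell. Both H. burtonii models named SPE1, TBIG001126 and TBIG001127, are among the 12. Their gene IDs are adjacent, and they may be parts of 1 gene. DUR1,2, the urea amidolyase that takes up the urea from arginase, changed by -0.80 ± 0.23 (adjusted p = 0.0217) and 1.15 ± 0.26 (adjusted p = 0.0127), and these changes differed by 1.94 ± 0.34 (adjusted p = 0.000883). The call in H. burtonii is lost without the second 0 min library, at -0.74, or the second 30 min library, at -0.63, and that in H. pseudoburtonii without any 1 of the 0 or 30 min libraries, at 1.08 to 1.21, and under quantile scaling, at 0.69. ORT1, the mitochondrial ornithine transporter, rose by 4.35 ± 0.42 in H. burtonii (adjusted p = 0.000224), from 3.2 and 0.9 FPKM to 62.3 and 50.9 FPKM. In H. pseudoburtonii ORT1 went from 71.5 and 85.5 FPKM to 106 and 82.3 FPKM and was not called.

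Of 10 genes of arginine and proline synthesis 5 rose in H. pseudoburtonii at 30 min, and 5 of 12 rose in H. burtonii, with none lower in either, beside 25.8 and 37 percent of all genes that rose. ARG1, argininosuccinate synthase, rose by 2.76 ± 0.34 in H. burtonii (adjusted p = 0.000643) and 4.03 ± 0.37 in H. pseudoburtonii (adjusted p = 0.00032), and the changes were not called as different (1.27 ± 0.51, adjusted p = 0.0705). ARG4, argininosuccinate lyase, rose by 1.93 ± 0.32 (adjusted p = 0.00229) and 3.06 ± 0.31 (adjusted p = 0.000565). PRO1, which opens proline synthesis in S. cerevisiae, fell by 1.70 ± 0.21 at 5 min in H. burtonii (adjusted p = 0.00264) and was back at 0.00 ± 0.21 at 30 min, and it was not called in H. pseudoburtonii at any time.

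Of 16 nitrogen regulators 3 rose and 2 fell in H. burtonii at 30 min, and 4 of 11 rose in H. pseudoburtonii, beside 37 and 25.8 percent of all genes that rose and 11.1 and 9.69 percent that fell. GLN3, a GATA activator of nitrogen catabolic genes in S. cerevisiae, rose in H. burtonii by 1.96 ± 0.26 (adjusted p = 0.00081) and was not called in H. pseudoburtonii, at 0.21 ± 0.33, and the changes differed by -1.75 ± 0.39 (adjusted p = 0.00447). PUT3, the activator of the PUT genes in that yeast, rose by 1.12 ± 0.28 in H. pseudoburtonii (adjusted p = 0.0186), a call lost without any 1 of the 0 or 30 min libraries, at 0.95 to 1.30, and under median-ratio and quantile scaling, at 0.74 and 0.36. UGA3, the GABA-responsive activator of the UGA genes, changed by -0.65 ± 0.23 in H. burtonii (adjusted p = 0.0474), and that call is lost without any 1 of the 8 libraries, at -0.51 to -0.78. Of the succinate and 2-oxoglutarate genes, where the GABA shunt ends, 1 of 10 rose in H. burtonii at 30 min, and 2 of 11 fell in H. pseudoburtonii. Of 3 aldehyde dehydrogenases in each species 2 rose and 1 fell in H. burtonii, where ALD5 rose by 5.48 ± 0.21 (adjusted p = 2.59e-06), and 1 rose in H. pseudoburtonii.

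For each gene called against 0 min, the genes with the most similar log2 values over the 8 libraries of the species were found by Pearson's r, among 5039 genes of H. burtonii and 5163 of H. pseudoburtonii with a mean of at least 10 FPKM. These values are descriptions over libraries that share times. The UGA2 genes of H. burtonii were closest to DOA1 and PRE2 (TBIG002647, r of 0.996 for both) and to RPN1 (TBIG004135, r = 0.997), and to each other at 0.995. PRE2 and RPN1 are proteasome subunits. GAD1 TBIG000839 was closest to KRE6 (r = 0.994), UGA1 to SQS1 (r = 0.996), GDHA to POX2, an acyl-CoA oxidase (r = 0.990), and CAR1 to PRO3 among named genes (r = 0.941).

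In H. pseudoburtonii CAR2 was closest to ARA1 (r = 0.997) and LYS1 (r = 0.996), CAR1 to CSP37 (r = 0.993), and GDHA to ap1b1 (r = 0.994). UGA1 was close to gatA, the other gene annotated as GABA aminotransferase (r = 0.983). PUT1 and PUT2 shared PPT1, a protein phosphatase, among their 3 closest genes (r of 0.977 and 0.965).

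Depth is not given, and low FPKM values let it be compared only relatively within a species. The lowest library had 0.464 of the deepest in H. burtonii and 0.267 in H. pseudoburtonii. In H. burtonii both 0 min libraries were shallower than all later ones and in H. pseudoburtonii deeper, and the part of this in the results was not tested. Libraries of the same time correlated at r of 0.955 to 0.989 and 0.918 to 0.979 over genes.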

How the data were processed

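RNA-seq values came as a table of genes per species, with 8 libraries each. The authors deposited FPKM and no read counts are used here. Per the submitters' processing notes TopHat2 2.1.1, Cufflinks 2.2.1, CASAVA 1.8.2 and FastQC 0.11.8 were used, without order or settings. For the genome build, the sources used here give none. FPKM are divided by gene length, so levels of genes can be compared, but a wrongly split gene model shifts them.

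FPKM became log2(FPKM + 1), which understates changes of low genes, and genes reaching 1 FPKM in 2 or more of the 8 libraries were kept. limma 3.58.1 in R 4.3.3 (with data.table, version 1.17.8) fitted 1 group per time and species, with a trend in the prior variance. Species differences were interaction terms over 3415 pairs (3235 by Swiss-Prot accession, 180 by name), of which 3399 passed the filter. With the copies matched by neighbours 3403 were fitted. Tables and figures used Python 3.11.15, pandas 2.3.3 and matplotlib 3.10.9. The fits were tested on simulated data.

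The genes, lists and tests were chosen with earlier results of these data known. Every gene of the 8 names is described, called list genes may be named, and the 3 most similar genes were found for each called gene. gdh-1 and gatA, and the uncalled list genes named beside a called partner or pair, stand outside that rule, and their values were known when they were picked. A gene named PRO2 but described as a proteasome subunit was left out. Comparisons against 0 min share the 0 min libraries. Alternatives were other scalings, pseudocounts, filters, prior, a replicate block, 2-fold calls and each library left out.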

Additional observations from a re-analysis of the deposited data

Results flagged for a closer look

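A limma test of the difference between the 2 species' changes (H. pseudoburtonii less H. burtonii) called these genes. At 5 min the difference on the log2 scale was 3.72 for GDHA and -3.04 for GAD1 (TBIG004714 against TBIG000839). At 15 min it was 3.52 for GDHA, -3.00 for GAD1, -2.18 for UGA1 and -1.06 for PUT2. At 30 min it was 5.83 for GDHA, -2.81 for UGA1, -1.55 for GAD1, -0.82 for PUT2 and 1.74 for CAR1.

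Among the copies matched by neighbours, UGA2 TBIG000867 against TBIG002647 differed by -1.19 at 15 min and -2.21 at 30 min. Gad1 TBIG003407 against TBIG004195 differed by -0.92 and CAR2 by 2.45 at 30 min. Species, strain and library series cannot be told apart in any of these values.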

How the results depend on the processing

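Over 243 results and 4616 alternatives, 4152 kept direction and side of the threshold, 403 lost a call, 14 gained one and 47 changed sign.

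Calls of the genes at 15 min in H. burtonii, 8 as reported, were 4 under median-ratio scaling, 5 under quantile scaling and 5 where at least 2-fold was asked. They also became fewer without the first 0 min library or any 1 of the 5 or 15 min libraries. In H. pseudoburtonii the 0 calls at 5 min became 1 under median-ratio scaling. Its 2 calls at 15 min became 1 at 2-fold, and its 2 from 5 to 15 min became 1 at 2-fold, 0 with no trend and 1 with the replicate block. With copies paired by neighbours 8 of 10 pairs were called at 30 min, in place of 5 of 6.

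Leaving out 1 library gave 3 to 8 calls from 5 to 15 min and 2 to 8 from 15 to 30 min in H. burtonii. In H. pseudoburtonii it gave 0 to 1 at 5 min, 1 to 2 at 15 min, 0 to 2 from 5 to 15 min and 0 to 8 from 15 to 30 min. A time left with 1 library is assumed to vary like the others. Calls over all tested genes also shifted in these fits.

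Replicate numbers were not taken as pairs, since not every correlation of same-numbered deviations was over 0.1. In H. burtonii they were 0.162, 0.459 and 0.165 among 0, 5 and 15 min and -0.164 to 0.015 with 30 min, and in H. pseudoburtonii -0.092 to 0.038. Besides that count, the replicate block took 7 single calls below the threshold. Over all genes at 5 min it gave 822 higher and 683 lower calls in H. burtonii, in place of 675 and 673, and 128 and 205 in H. pseudoburtonii, in place of 242 and 264. From 5 to 15 min it gave 104 and 44 in H. pseudoburtonii, in place of 177 and 100.

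The changes of sign all concern values that were not called, and the cause was not tested. Under median-ratio scaling the H. burtonii values at 30 min were -0.34 for CAR2 TBIG001029, -0.18 for CAR1 and -0.056 for merged CAR2. In H. pseudoburtonii they were -0.054 for CAR1, -0.042 for UGA1 and -0.041 for GAD1 TBIG003407 at 5 min, -0.10 for UGA1 and -0.10 for GAD1 TBIG004714 at 15 min, and -0.31 for UGA2 TBIG000867 at 30 min. Under quantile scaling the H. burtonii values were -0.050 for CAR2 TBIG001030, -0.17 for merged CAR2 and -0.012 for PUT1 at 5 min, and -0.031 for CAR2 TBIG001029 at 30 min. In H. pseudoburtonii they were 0.062 for PUT2 at 5 min, -0.17 for GAD1 TBIG004714 at 15 min and -0.89 for UGA2 TBIG000867 at 30 min. The species difference at 15 min became 0.23 and 0.14 for CAR1 and 0.17 and 0.039 for UGA2 TBIG003351 under median-ratio and quantile scaling.

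With 1 library left out, H. burtonii values at 5 min ran from -0.048 to 0.60 for CAR2 TBIG001030, from -0.11 to 0.36 for merged CAR2 and from -0.37 to 0.73 for PUT1, and at 30 min from -0.83 to 0.26 for PUT1. In H. pseudoburtonii the 5 min values ran from -0.34 to 0.23 for PUT2, -0.28 to 0.029 for UGA2 TBIG000867, -0.053 to 0.029 for UGA2 TBIG003351, -0.055 to 0.20 for CAR1 and -0.13 to 0.30 for UGA1. Its 15 min values ran from -0.30 to 0.33 for UGA1, -0.36 to 0.28 for GAD1 TBIG003407 and -0.31 to 0.31 for GAD1 TBIG004714, and its 30 min values from -0.18 to 0.30 for UGA2 TBIG000867 and -0.069 to 0.069 for GAD1 TBIG003407. The species difference ran from -0.55 to 0.015 for PUT2 and -0.39 to 0.70 for PUT1 at 5 min, and from -0.34 to 0.30 for CAR1 and -0.23 to 0.066 for UGA2 TBIG003351 at 15 min.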
